A study of Mus musculus with 12 samples.

Results

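Proteasome genes of the mouse heart were followed through 12 RNA libraries, from 3 groups of 4 wild-type C57BL/6 mice. The members are the protein-coding genes of the GENCODE annotation of GRCm38 whose symbol starts with Psma, Psmb, Psmc, Psmd, Psme, Psmf or Psmg and goes on with a digit. The annotation holds 50 of them, and 48 are among the 12866 genes listed for all 12 libraries. Psma8, the alpha subunit of the testis, and Psmb11, the catalytic subunit of the thymus, are not listed. All 48 were among the 11509 genes tested, which reached 1 FPKM (fragments scaled to transcript length and library depth) in at least 4 libraries, and 46 reached it in all 12. Psme2b had 3 of its 4 Control libraries below 1 FPKM and passed through the other groups. Psmc3ip meets the rule by its symbol alone, since its product is a partner protein of meiotic recombination, and it is kept in the counts over all members.

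Control mice were given saline for both treatments, LPS mice lipopolysaccharide (a bacterial endotoxin) at 10 mg/kg and saline, and LPS+XJDHT mice LPS at 10 mg/kg and XJDHT, Xijiao Dihuang decoction, at 50 mg/kg per day. The treatments ran for 3 days in all groups, and the labels give neither age nor sex of the mice. The study compares these groups to follow cardiac dysfunction in sepsis, for which endotoxin serves as a model without live bacteria. Total RNA of the heart was depleted of ribosomal RNA and sequenced.

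The proteasome is the main protease of the cytosol and nucleus for proteins tagged with ubiquitin. Its barrel, the 20S core, is a stack of alpha and beta rings whose catalytic beta subunits face an inner chamber, and the 19S cap recognises, unfolds and feeds in the substrates. Cells exposed to interferons build immunoproteasomes, in which each catalytic beta subunit is replaced by an inducible counterpart: Psmb8 takes the place of Psmb5, Psmb9 of Psmb6 and Psmb10 of Psmb7. The 11S cap made of Psme1 and Psme2 is induced with them, and the peptides released are used for display on class I molecules. In heart muscle the proteasome takes part in the turnover of contractile proteins.

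The libraries held 73758751 to 77811527 fragments. The 6 cardiomyocyte markers were all listed, summing to 10065 to 10974 FPKM in Control, 5372 to 6603 in LPS and 4669 to 6407 in LPS+XJDHT. The fall in the sum was not shared by all 6. By the test used below, Myh6, Myl2 and Tnni3 were lower after LPS, and Actn2, Ryr2 and Tnnt2 did not pass. The log2 fold changes ran from -1.47 to 0.02. Replicate 2 of LPS+XJDHT stood apart with 0.205 FPKM over 4 Y-linked genes, against 20.4 to 61.9 FPKM in the other libraries. Small intestine markers, all 8 listed, summed to 15.3 to 22.6 FPKM in LPS, to at most 1.58 in Control and to at most 1.96 in LPS+XJDHT. The part of either in the results on proteasome genes was not tested. In bulk tissue, fewer cells of a type and less RNA per cell cannot be told apart.

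After LPS, 41 of the 48 proteasome genes rose and 0 fell (limma, Benjamini-Hochberg adjusted over all genes tested). Among all 11509 genes 26.6% rose and 12% fell. The 3 inducible catalytic subunits all rose, by a median of 1.85 on the log2 scale. Of the 31 constitutive subunits of the 26S particle, core and 19S cap together, 30 rose, with a median of 0.76. The median log2 fold change was 0.74 over the members and 0.16 over all genes, 46 members had a positive value, and 14 reached 1 on the log2 scale. The groups did not overlap, with LPS the higher, in 39 members and in 25.3% of all genes. Scaling that sets the typical gene to no change (median-ratio scaling) moved the median of all genes to 0.00 and that of the members to 0.56, with 34 members rising and 0 falling against a background of 18.6% and 18.5%. Over all genes the split under this scaling was 2130 higher and 2122 lower, against 3063 and 1384 without it.

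**Figure D1:**
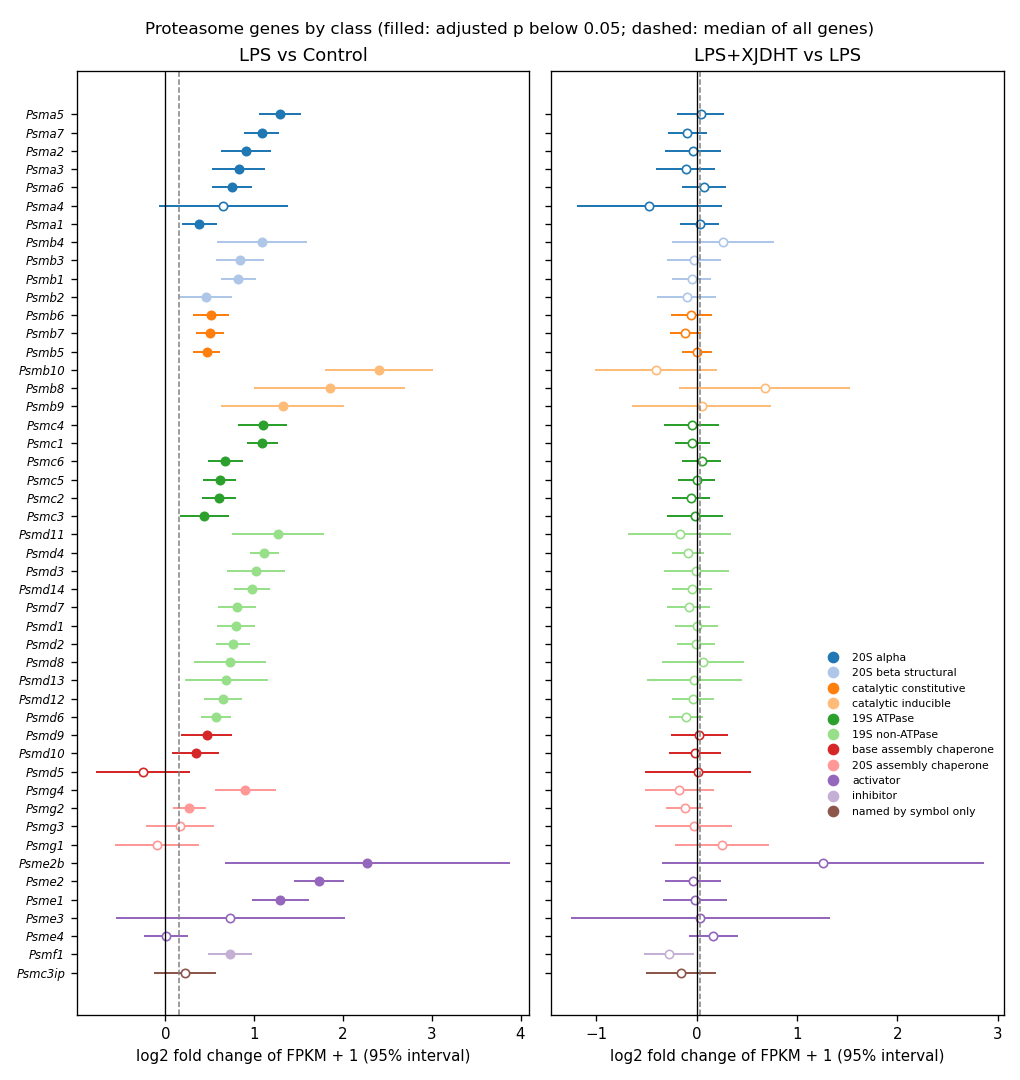
Log2 fold change of FPKM + 1 for the 48 tested proteasome genes, ordered by class, in LPS against Control (left) and LPS+XJDHT against LPS (right). Points are limma estimates with 95% intervals, filled points have an adjusted p below 0.05 and the dashed line is the median of all genes. On the left 41 points are filled, all to the right of 0, and on the right none is.

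The catalytic subunits of the standard core were abundant in Control hearts and their inducible counterparts were not. Psmb5, the chymotrypsin-like subunit (ENSMUSG00000022193, chr14:54614119-54618022 in mm10), was at 74.5, 70, 69.2 and 69.9 FPKM in the 4 Control libraries, at 99.0, 97.1, 96.1 and 100 FPKM in LPS and at 95.6, 101, 92.5 and 105 FPKM in LPS+XJDHT. All 8 libraries given LPS lay above all Control libraries, and the treated groups overlapped. The log2 fold change of LPS against Control was 0.46 ± 0.06 (SE, n = 4 per group, limma adjusted p = 0.00017).

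Psmb6, the caspase-like subunit (ENSMUSG00000018286, chr11:70525367-70527858), was at 83.7, 82.9, 67.7 and 69.0 FPKM in Control, at 109, 111, 97.9 and 114 FPKM in LPS and at 109, 99.1, 103 and 105 FPKM in LPS+XJDHT. Psmb7, the trypsin-like subunit (ENSMUSG00000026750, chr2:38588036-38644087), was at 96.4, 93.2, 91.1 and 93.8 FPKM in Control, at 129, 132, 129 and 143 FPKM in LPS and at 136, 117, 118 and 123 FPKM in LPS+XJDHT. For both genes the Control libraries lay below the 8 others. Their log2 fold changes in LPS against Control were 0.51 ± 0.09 and 0.50 ± 0.07 (limma adjusted p = 0.00087 and 0.00016). With median-ratio scaling the 3 standard subunits rose by 0.27, 0.31 and 0.31.

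Psmb10, the inducible trypsin-like subunit (ENSMUSG00000031897, chr8:105935735-105938444), was at 13.9, 14.7, 11.1 and 13.0 FPKM in Control, at 86.1, 90.6, 58.4 and 65.2 FPKM in LPS and at 99.3, 61.9, 33.5 and 46.2 FPKM in LPS+XJDHT. The lowest library given LPS was above the highest Control library, and the LPS+XJDHT libraries spread on both sides of the LPS range. Its mean was 13.2 ± 1.54, 75.1 ± 15.7 and 60.2 ± 28.5 FPKM (SD, n = 4), and its log2 fold change in LPS against Control was 2.41 ± 0.27 (limma adjusted p = 5.2e-05).

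Psmb8, the inducible chymotrypsin-like subunit also called LMP7 (ENSMUSG00000024338, chr17:34197721-34201454), was at 4.96, 4.71, 4.45 and 5.57 FPKM in Control, at 8.15, 24.5, 31.4 and 26.1 FPKM in LPS and at 53.9, 18.0, 31.6 and 38.7 FPKM in LPS+XJDHT. LPS replicate 1 was far below the rest of its group but above all Control libraries. The log2 fold change in LPS against Control was 1.85 ± 0.38 (limma adjusted p = 0.0028), and without that library it was 2.25. LPS+XJDHT libraries were both lowest and highest among the 7 other treated libraries, and their mean was 35.5 ± 14.9 FPKM against 22.5 ± 10.0 FPKM in LPS.

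Psmb9, the inducible counterpart of Psmb6 also called LMP2 (ENSMUSG00000096727, chr17:34181987-34187764), was the lowest of the catalytic genes. It was at 1.49, 3.59, 1.76 and 3.28 FPKM in Control, at 7.69, 9.08, 8.37 and 5.41 FPKM in LPS and at 11.9, 3.63, 8.16 and 10.1 FPKM in LPS+XJDHT. LPS+XJDHT replicate 2 was at the level of the highest Control library, and the 7 other libraries given LPS were well above. The log2 fold change in LPS against Control was 1.32 ± 0.31 (limma adjusted p = 0.0060). Psmb8 and Psmb9 lie close together in the class II region of the major histocompatibility complex, and Psmb10 lies on another chromosome.

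**Figure D2:**
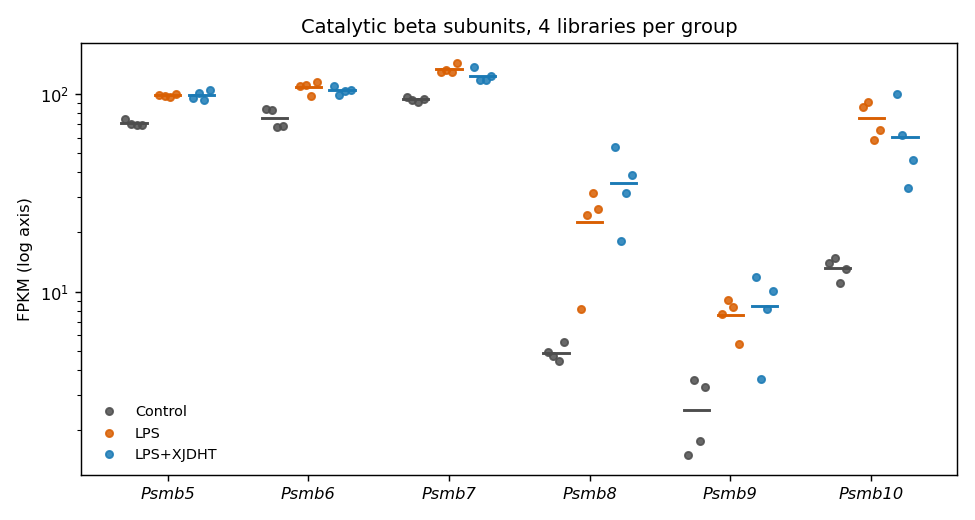
FPKM (log axis) of the standard catalytic subunits Psmb5, Psmb6 and Psmb7 and of their inducible counterparts Psmb8, Psmb9 and Psmb10. Each point is 1 library and each line the mean of 4. The standard subunits of Control libraries sit between 67.7 and 96.4 FPKM, and the inducible ones between 1.49 and 14.7 FPKM.

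Within a library, the ratio of an inducible subunit to its standard counterpart does not depend on library scaling. Psmb8 made up 6.49 ± 0.604% of the FPKM of Psmb8 and Psmb5 in Control, 18.3 ± 7.37% in LPS and 25.9 ± 8.57% in LPS+XJDHT (SD, n = 4). For Psmb10 with Psmb7 the share was 12.3 ± 1.14%, 35.8 ± 5.29% and 31.5 ± 8.75%, and for Psmb9 with Psmb6 it was 3.24 ± 1.32%, 6.64 ± 1.51% and 7.37 ± 2.75%. The standard subunit remained the larger part of each pair in all 12 libraries, up to a share of 42.2% for Psmb10 in replicate 1 of LPS+XJDHT.

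The log2 ratio of Psmb10 to Psmb7 was 1.99 higher in LPS than in Control, a 3.96-fold rise in the ratio (exact permutation test, two-sided, p = 0.0286). For Psmb8 to Psmb5 the difference was 1.57, or 2.96-fold (exact permutation p = 0.0286), and 2.00 without LPS replicate 1. In both pairs every LPS library had a higher ratio than every Control library, and 0.0286 is the smallest p that 4 against 4 allows. For Psmb9 to Psmb6 the difference was 1.16, or 2.23-fold (exact permutation p = 0.0571), and the groups overlapped, with LPS replicate 4 below Control replicate 4. After Benjamini-Hochberg adjustment over the 9 tests, of 3 pairs in 3 comparisons, the lowest adjusted p was 0.0643, so no ratio passed 0.05. With a floor of 0.0286, an adjusted p below 0.05 would have needed most of the 9 tests to reach that floor. The adjusted result could therefore hardly pass, and it does not show that the ratios were unchanged.

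**Figure D3:**
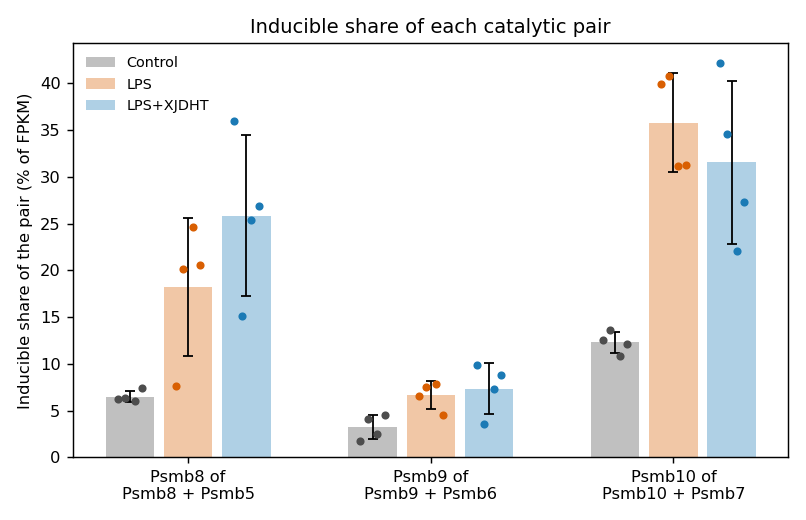
Share of the inducible subunit in the FPKM of each catalytic pair, in percent. Bars are means of 4 libraries with the SD, and points are libraries. The Control libraries lie below all LPS and LPS+XJDHT libraries for Psmb8 and Psmb10, and for Psmb9 the groups overlap.

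Promoter sequence is shown here for Psmb5, Psmb6, Psmb8 and Psmb10, catalytic subunits that changed together but by different amounts, and for Psmd4, a cap subunit with a large change. Psmb7 had no matched window. RefSeq windows of the 250 bases before a start site (GRCm38.p6) were matched by symbol for 42 of the 50 members, 45 windows in all. They were searched on both strands for the interferon-stimulated core (GAAA, any 2 bases and GAAA again), the interferon-gamma activated site TTCNNNGAA, the antioxidant element TGACNNNGC, the kappaB motif and CCAAT. Each motif was searched on its own, so matches may overlap. The windows of Psmb5 and Psmb6 each hold 1 antioxidant element, at 47 to 39 and at 9 to 1 bases before the start, and Psmb8 holds 1 interferon-gamma activated site, at 97 to 89 bases. The window of Psmd4 holds 1 interferon-stimulated core, at 80 to 71 bases, and 1 CCAAT box read on the opposite strand, at 95 to 91 bases, which is not capitalised. That of Psmb9 holds CCAAT alone, and these letters were not found in that of Psmb10, which is shown for contrast. Bases that the annotation gives as UTR are left out, except for Psmb8. All 250 bases before its RefSeq start lie within the GENCODE gene and are UTR of an annotated transcript, so the site lies in annotated UTR, and only the site and 10 bases on either side are shown. Capitals mark the match to the site, element or core, read on either strand, letters run 5′ to 3′ on the gene's strand, and the position and strand stand before each. Positions of matches count back from the RefSeq start.
Psmb5, chr14:54618023-54618245, minus strand: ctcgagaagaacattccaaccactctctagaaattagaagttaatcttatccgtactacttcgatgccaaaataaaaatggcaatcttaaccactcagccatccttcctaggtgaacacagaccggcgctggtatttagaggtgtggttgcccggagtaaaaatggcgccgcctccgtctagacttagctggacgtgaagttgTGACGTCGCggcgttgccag
Psmb6, chr11:70525107-70525356, plus strand: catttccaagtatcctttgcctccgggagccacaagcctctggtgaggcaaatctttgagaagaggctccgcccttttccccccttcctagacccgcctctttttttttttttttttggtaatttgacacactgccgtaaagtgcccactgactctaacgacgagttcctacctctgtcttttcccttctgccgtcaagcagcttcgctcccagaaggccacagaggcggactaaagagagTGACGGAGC
Psmb8, chr17:34198088-34198116, plus strand: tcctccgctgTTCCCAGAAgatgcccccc
Psmb10, chr8:105938445-105938642, minus strand: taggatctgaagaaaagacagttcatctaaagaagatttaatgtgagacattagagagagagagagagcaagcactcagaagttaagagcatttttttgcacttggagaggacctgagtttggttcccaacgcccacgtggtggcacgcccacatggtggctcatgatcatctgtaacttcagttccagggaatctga
Psmd4, chr3:95042615-95042864, minus strand: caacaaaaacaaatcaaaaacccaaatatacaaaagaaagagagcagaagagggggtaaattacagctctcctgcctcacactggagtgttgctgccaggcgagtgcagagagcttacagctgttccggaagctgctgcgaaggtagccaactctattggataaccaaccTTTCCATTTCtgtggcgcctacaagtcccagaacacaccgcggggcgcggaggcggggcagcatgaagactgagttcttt

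These matches are descriptions of letters. The antioxidant element was in 5 of the 45 member windows (11.1%; Psmb5, Psmb6, Psmc6, Psmd9 and Psmd12) and in 10.2% of 32851 windows of all genes. The interferon-stimulated core was in 3 (Psmb3, Psmd4 and Psmd9), or 6.67% against 2.98%, the interferon-gamma activated site in 2 (Psmb8 and Psmg1), or 4.44% against 7.02%, the kappaB motif in 6, or 13.3% against 7.25%, and CCAAT in 15, or 33.3% against 33.8%.

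Of the alpha subunits of the core, which form the gated outer rings, 6 of 7 rose after LPS, where 26.6% of all genes rose. The median change of the 7 was 0.82 on the log2 scale. Psma5 led them, at 28.3, 29.3, 25.4 and 25.9 FPKM in Control, at 74.1, 67.7, 58.6 and 72.7 FPKM in LPS and at 78.9, 65.4, 62.4 and 74.4 FPKM in LPS+XJDHT. The lowest library given LPS was at 58.6 FPKM and the highest Control library at 29.3 FPKM, and the log2 fold change in LPS against Control was 1.29 ± 0.10 (limma adjusted p = 4.0e-06). Psma7 rose by 1.08, and Psma1 by 0.38, the lowest of the 6 and not called with median-ratio scaling. Psma4 did not pass: it was at 45.7 to 52.3 FPKM in Control, at 70.5 to 91.8 in LPS, and in LPS+XJDHT at 76.3, 82.7, 67.1 and 22.0 FPKM. That last library, replicate 4, lay below all 11 others and widened the shared spread. Psma4 had a log2 fold change of 0.65 ± 0.33 in LPS against Control (limma adjusted p = 0.14), and 0.65 ± 0.10 (adjusted p = 0.00074) in a fit without that library. The structural beta subunits Psmb1, Psmb2, Psmb3 and Psmb4, which carry no active site, all rose, between 0.46 for Psmb2 and 1.09 for Psmb4. Psmb2 was not called with median-ratio scaling.

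All 6 ATPases of the cap base, which unfold the substrate, rose, where 26.6% of all genes rose. The median change of the 6 was 0.64 on the log2 scale. Psmc4 was at 29.7, 33.2, 32.4 and 31.7 FPKM in Control, at 78.3, 74.4, 57.0 and 68.2 FPKM in LPS and at 70.5, 73.8, 53.5 and 70.9 FPKM in LPS+XJDHT. No library given LPS came near the Control range, and the log2 fold change was 1.10 ± 0.12 (limma adjusted p = 4.3e-05). Psmc1 rose by 1.09, Psmc6 by 0.67, Psmc2 and Psmc5 by 0.61 each and Psmc3 by 0.44. Psmc3 was not called with median-ratio scaling.

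All 11 non-ATPase subunits of the cap rose, between 0.58 for Psmd6 and 1.27 for Psmd11, where 26.6% of all genes rose. From the most abundant transcript of each gene alone, Psmd2, Psmd8, Psmd11 and Psmd13 did not pass. Psmd13 also missed the threshold with median-ratio scaling. Psmd4, a receptor for ubiquitin chains, was at 36.4, 37.9, 35.9 and 36.2 FPKM in Control, at 87.5, 73.2, 80.6 and 80.7 FPKM in LPS and at 75.6, 74.4, 74.5 and 78.9 FPKM in LPS+XJDHT. The 3 groups were each tight, and the log2 fold change of 1.11 ± 0.07 had the smallest adjusted p of all members (8.6e-07, limma). Psmd14, the deubiquitinase of the cap, rose by 0.98, and Psmd1 and Psmd2, its large scaffolds, rose by 0.79 and 0.76. From its coding transcript alone Psmd2 had 0.37 (limma adjusted p = 0.22).

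Psmd11, a subunit that clamps cap to core, was at 12.2, 14.9, 13.0 and 16.8 FPKM in Control, at 52.7, 36.4, 27.6 and 29.8 FPKM in LPS and at 46.1, 31.0, 22.0 and 31.0 FPKM in LPS+XJDHT, with no overlap between Control and the others. Its log2 fold change of 1.27 ± 0.23 (limma adjusted p = 0.0012) rests on summed transcripts, which varied between libraries. The coding transcript of 2848 bases was at 23.5, 33.1, 26.9 and 4.93 FPKM in the LPS libraries, and one with a retained intron was at 29.1, 2.82, 0.662 and 21.8 FPKM. From coding transcripts alone the log2 fold change was 1.38 with an adjusted p of 0.11. Psmd2 showed the same kind of split: a transcript annotated for nonsense-mediated decay was at 36.0 FPKM in LPS replicate 2, 40.9 in LPS replicate 4 and 37.1 in LPS+XJDHT replicate 4, and at most 0.154 FPKM in the other libraries. In those libraries the coding transcript of Psmd2 was lower, at 51.2, 54.3 and 56.8 FPKM, and the sum of all Psmd2 transcripts was 87.1, 95.2 and 93.8 FPKM. Psmd13 was at 23.9 FPKM in LPS replicate 1 and 22.6 in LPS+XJDHT replicate 1, close to the 20.8 to 22.6 FPKM of Control, and at 35.8 to 42.8 in the 6 other libraries given LPS.

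Of the 7 helpers of assembly, 4 rose after LPS, where 26.6% of all genes rose. Psmd9 and Psmd10, chaperones of the cap base, rose by 0.46 and 0.34, and Psmd5, the remaining one, was at 2.46 ± 0.956 FPKM in Control and 1.91 ± 0.903 in LPS (log2 fold change -0.25 ± 0.24, limma adjusted p = 0.44). Of the 4 chaperones of the core, Psmg4 rose by 0.90 and Psmg2 by 0.27. Psmg1 (log2 fold change -0.09, limma adjusted p = 0.76) and Psmg3 (0.17, adjusted p = 0.47) did not pass. With median-ratio scaling Psmd9, Psmd10 and Psmg2 did not pass either, which left Psmg4, where 18.6% of all genes rose. Whether helpers and subunits differed in their response was not tested. Psmc3ip was at 0.975 ± 0.218 FPKM in Control and 1.30 ± 0.164 in LPS (limma adjusted p = 0.28).

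The activator caps and the inhibitor are given by kind, and differences between them were not tested. Psme1, the alpha subunit of the 11S cap (chr14:55578123-55581529), was at 32.3, 46.0, 37.7 and 38.9 FPKM in Control, at 106, 102, 82.9 and 93.2 FPKM in LPS and at 121, 78.8, 93.0 and 91.8 FPKM in LPS+XJDHT. Psme2, its partner in the ring, lies close to it in the genome (chr14:55587441-55591113). Psme2 was at 24.1, 27.0, 21.6 and 27.1 FPKM in Control, at 97.7, 91.9, 72.6 and 79.0 FPKM in LPS and at 98.1, 73.2, 77.6 and 84.3 FPKM in LPS+XJDHT. Neither gene had a library given LPS within the Control range. The log2 fold changes were 1.30 ± 0.14 for Psme1 and 1.73 ± 0.12 for Psme2 (limma adjusted p = 4.0e-05 and 1.9e-06).

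Psme2b is a near-identical retrocopy of Psme2 on chromosome 11, so how fragments were split between the copies is uncertain. It was at 0.792, 2.08, 0.553 and 0.726 FPKM in Control, at 5.93, 5.62, 32.5 and 4.26 FPKM in LPS and at 38.0, 32.7, 3.67 and 42.5 FPKM in LPS+XJDHT. The libraries given LPS fell into 4 above 32 FPKM and 4 below 6 FPKM, in both groups. Its log2 fold change of 2.27 ± 0.73 (limma adjusted p = 0.028) missed the threshold without LPS replicate 3 (1.67, adjusted p = 0.067), without Control replicate 1, 3 or 4 (adjusted p = 0.059, 0.065 and 0.060) and with limma-voom on recovered fragments (adjusted p = 0.11). The sum of Psme2 and Psme2b was 26 ± 3.11 FPKM in Control, 97.3 ± 9.97 in LPS and 113 ± 24.4 in LPS+XJDHT.

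Psme3, which forms the nuclear cap of the same family and is not known for induction by interferon, was at 4.18, 16.5, 7.40 and 5.54 FPKM in Control, at 5.31, 11.4, 20.5 and 21.5 FPKM in LPS and at 28.0, 25.5, 4.84 and 8.42 FPKM in LPS+XJDHT. All groups overlapped, and the log2 fold change was 0.73 ± 0.59 (limma adjusted p = 0.35). Psme4, the single-chain activator PA200, was at 36.8, 34.1, 42.8 and 41.1 FPKM in Control, at 36.8, 33.0, 41.6 and 44.4 FPKM in LPS and at 47.0, 44.5, 42.4 and 40.7 FPKM in LPS+XJDHT. Its log2 fold change in LPS against Control was 0.01 with a 95% interval of -0.23 to 0.24 (limma adjusted p = 0.97).

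Psmf1, the inhibitor PI31, was at 3.32, 2.79, 3.81 and 3.07 FPKM in Control, at 6.94, 5.75, 6.0 and 5.49 FPKM in LPS and at 4.97, 4.41, 5.0 and 4.94 FPKM in LPS+XJDHT. No 2 groups overlapped, with LPS+XJDHT between the others. The log2 fold change in LPS against Control was 0.73 ± 0.11 (limma adjusted p = 0.00032), and 0.23 with an adjusted p of 0.49 from coding transcripts alone.

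**Figure D4:**
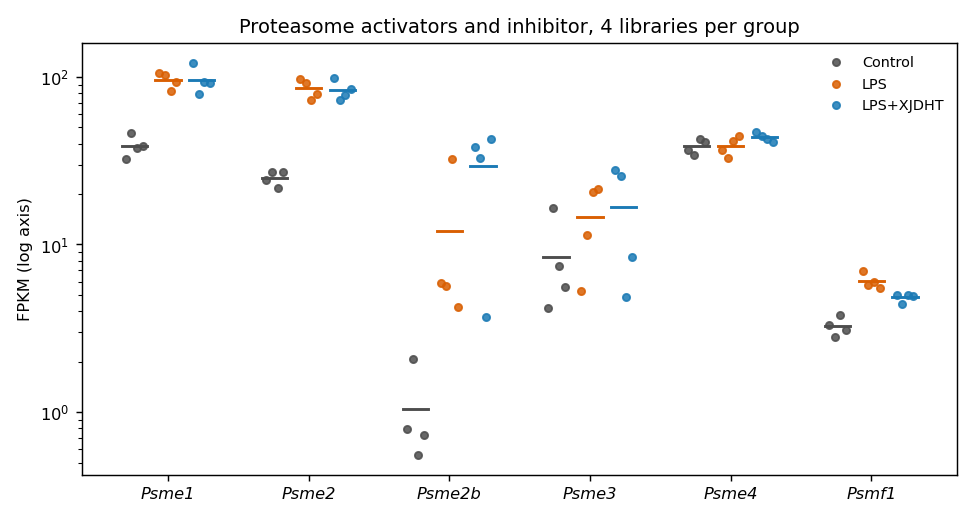
FPKM (log axis) of the proteasome activators Psme1, Psme2, Psme2b, Psme3 and Psme4 and the inhibitor Psmf1. Each point is 1 library and each line the mean of 4. Psme1 and Psme2 separate Control from the other groups, Psme4 lies between 33.0 and 47.0 FPKM in all groups, and Psme2b splits into libraries above 32 and below 6 FPKM.

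Whether the decoction altered the response to LPS is read from LPS+XJDHT against LPS. The LPS+XJDHT libraries came with a transcript list of their own, so effects of the decoction and of processing cannot be told apart. No proteasome gene passed the test, 0 of 48, by limma or by limma-voom on recovered fragments, and 1 had an unadjusted p below 0.05. Among all genes 0.113% fell and 0% rose, and 551 of 11509 had an unadjusted p below 0.05. The median log2 fold change was -0.03 over the members and 0.03 over all genes. The 95% interval lay within 0.5 of no change on the log2 scale for 36 members and within 1 for 44, and it reached beyond 1 for Psma4, Psmb8, Psme2b and Psme3.

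The member with the unadjusted p below 0.05 was Psmf1, at 4.83 ± 0.281 FPKM in LPS+XJDHT against 6.04 ± 0.631 in LPS. Its log2 fold change was -0.27, with a 95% interval of -0.51 to -0.03 (limma adjusted p = 0.99). From the coding transcript of Psmf1 alone the sign turned, to 0.44, so no direction holds for it. It was one of 2 members whose LPS+XJDHT libraries all lay below all LPS libraries, the other being Psmg2, at 14.6 to 14.9 against 15.4 to 17.1 FPKM. Of all genes, 0.86% had this separation downward and 1.95% upward, and 0 members had it upward.

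Psmb8 had a log2 fold change of 0.68 in LPS+XJDHT against LPS, with a 95% interval of -0.16 to 1.52 (limma adjusted p = 0.99). It was 0.27 without LPS replicate 1 and 0.96 without LPS+XJDHT replicate 2, the library low in RNA of Y-linked genes. Psme2b had 1.26 with an interval of -0.33 to 2.86, Psmb10 -0.40 with an interval of -1.0 to 0.19 and Psmb9 0.05 with an interval of -0.63 to 0.73. Psmb5, Psmb6 and Psmb7 lay within narrower bounds, from -0.13 to 0.14, from -0.24 to 0.14 and from -0.26 to 0.04. The log2 ratio of Psmb8 to Psmb5 differed by 0.71 (exact permutation p = 0.286), that of Psmb10 to Psmb7 by -0.30 (p = 0.457) and that of Psmb9 to Psmb6 by 0.09 (p = 0.800). With 1 library left out at a time these ranged from 0.27 to 1.01, from -0.53 to -0.08 and from -0.09 to 0.43.

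Against Control, LPS+XJDHT hearts had 40 of 48 members higher and 0 lower, with 28.5% of all genes rising and 10.7% falling. This comparison uses the same Control libraries as the one of LPS. The groups did not overlap, with LPS+XJDHT the higher, in 39 members and in 30.2% of all genes. With median-ratio scaling 31 rose and 0 fell, where 17.1% of all genes rose and 18% fell, 35% in either direction. Without LPS+XJDHT replicate 2 the unscaled count was 37. The median log2 fold change was 0.73 over the members and 0.19 over all genes. Psmb8 rose by 2.53 ± 0.38, Psmb10 by 2.01 ± 0.27 and Psmb9 by 1.37 ± 0.31 (limma adjusted p = 0.00040, 0.00019 and 0.0049). Psmb5, Psmb6 and Psmb7 rose by 0.47, 0.46 and 0.39, of which Psmb6 and Psmb7 did not pass with median-ratio scaling (0.21 and 0.15, adjusted p = 0.12 and 0.13). Psma5 rose by 1.33, Psmd4 by 1.03, Psme1 by 1.28 and Psme2 by 1.70. Psmf1 rose by 0.46 (adjusted p = 0.0059), and by 0.27 with an adjusted p of 0.066 under median-ratio scaling. The 8 members that did not pass were Psma4, Psmc3ip, Psmd5, Psme3, Psme4, Psmg1, Psmg2 and Psmg3. The log2 ratio of Psmb8 to Psmb5 was 2.27 higher and that of Psmb10 to Psmb7 1.69 higher than in Control (exact permutation p = 0.0286 each), and that of Psmb9 to Psmb6 was 1.25 higher (exact permutation p = 0.0857).

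Genes for proteins that work with the proteasome, outside the symbol rule, are given here as partners. Of 11 listed partners 5 rose and 1 fell after LPS, where 26.6% of all genes rose and 12% fell. With median-ratio scaling 3 rose and 4 fell, where the shares of all genes were 18.6% and 18.5%. Their median log2 fold change was 0.11, against 0.16 over all genes. Adrm1, another ubiquitin receptor of the cap, was at 23.3, 23.1, 24.4 and 22.6 FPKM in Control, at 43.7, 44.5, 34.0 and 37.6 FPKM in LPS and at 35.8, 40.6, 37.9 and 41.3 FPKM in LPS+XJDHT (log2 fold change in LPS against Control 0.74 ± 0.09, limma adjusted p = 0.00012). Txnl1, a thioredoxin of the cap, rose by 0.68, and Zfand2a, a cap-binding protein induced by arsenite, by 0.91. From its most abundant transcript alone Zfand2a did not pass (0.73, limma adjusted p = 0.16). Zfand5, a zinc finger protein that binds and stimulates the proteasome, fell: it was at 37.5, 35.5, 38.1 and 45.5 FPKM in Control, at 21.8, 15.7, 30.8 and 21.9 FPKM in LPS and at 19.9, 30, 19.1 and 19.3 FPKM in LPS+XJDHT (log2 fold change in LPS against Control -0.80 ± 0.19, limma adjusted p = 0.0065). Pomp, the maturation factor of the core, rose by 0.49, and Usp14, a deubiquitinase of the cap, by 0.37, and neither passed with median-ratio scaling. Sem1, the small cap subunit that the symbol rule leaves out, was at 40.2 ± 2.75 FPKM in Control and 38.1 ± 2.25 in LPS (limma adjusted p = 0.48), and was called lower with median-ratio scaling.

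Of 16 genes of ubiquitin, its activation and its shuttling, 6 rose and 1 fell after LPS, with a median of 0.25 on the log2 scale. The shares of all genes were 26.6% and 12%. The counts were the same with median-ratio scaling, where the shares were 18.6% and 18.5%. The one that fell was Uba6, an activating enzyme, at 1.85 ± 0.16 FPKM in Control and 1.03 ± 0.34 in LPS. Vcp, the ATPase that extracts ubiquitinated proteins, was at 81.0 to 85.3 FPKM in Control and at 116 to 153 FPKM in LPS, and its cofactors Nploc4 and Ufd1 were at 13.4 to 15.0 and 8.97 to 11.8 FPKM against 23.2 to 29.9 and 15.8 to 24.4 FPKM. The log2 fold changes of these 3 were 0.73, 0.83 and 0.92, of which that of Ufd1 did not pass from its most abundant transcript alone (0.63, limma adjusted p = 0.063). Isg15, the ubiquitin-like product of an interferon-stimulated gene, was at 5.50 ± 0.702 FPKM in Control and 49.1 ± 23.5 in LPS (log2 fold change 2.83 ± 0.32, limma adjusted p = 5.5e-05). Ubd, a ubiquitin-like tag that targets proteins to the proteasome, was at 0.114 FPKM or less in Control and at 1.88 to 4.23 FPKM in LPS. It passed the filter on low values only through the libraries given LPS, so its place among the 6 that rose was favoured by the filter.

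The genes that use proteasome products for class I display rose in 7 of 10 cases after LPS and fell in 0, or in 1 with median-ratio scaling. Their median was 1.24 on the log2 scale. Of all genes 26.6% rose and 12% fell, or 18.6% and 18.5% with median-ratio scaling. B2m, the light chain of class I molecules, was at 232, 274, 198 and 300 FPKM in Control, at 1297, 1124, 1238 and 1240 FPKM in LPS and at 1374, 795, 1368 and 1303 FPKM in LPS+XJDHT (log2 fold change in LPS against Control 2.30 ± 0.18, limma adjusted p = 3.4e-06). Tapbp, which loads peptide onto class I, rose by 2.59 ± 0.29, Tap1, a subunit of the peptide transporter that lies between Psmb9 and Psmb8, by 1.78 ± 0.33, and Nlrc5, the transactivator of class I genes, by 1.34 ± 0.23. From its most abundant transcript alone Nlrc5 did not pass (0.70, limma adjusted p = 0.25).

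Of 11 genes for proteins known for a part in the regulation of proteasome genes, 5 rose and 0 fell after LPS, where 26.6% of all genes rose and 12% fell. Their median was 0.67 on the log2 scale. With median-ratio scaling 4 rose, without Stat2, and 0 fell, where 18.6% of all genes rose and 18.5% fell. Stat3, which carries cytokine signals to the nucleus, was at 51.3, 46.2, 42.0 and 50.3 FPKM in Control, at 165, 105, 87.7 and 112 FPKM in LPS and at 137, 109, 90 and 127 FPKM in LPS+XJDHT. No library given LPS was within the Control range, and the log2 fold change in LPS against Control was 1.25 ± 0.18 (limma adjusted p = 0.00027). Irf9 rose by 1.34. Nfe2l2, the antioxidant response factor, had 0.67 ± 0.16 over all transcripts (limma adjusted p = 0.0072) and -0.44 over coding transcripts alone, so no direction holds for it. Irf1, an inducer of immunoproteasome genes, was at 8.07 ± 1.57 FPKM in Control, 4.70 ± 3.38 in LPS and 2.05 ± 1.51 in LPS+XJDHT, and it was lower in LPS+XJDHT than in Control (log2 fold change -1.69 ± 0.45, limma adjusted p = 0.012). Nfe2l1, the factor that raises proteasome genes when the protease is inhibited, varied from 30.4 to 119 FPKM with all groups overlapping.

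Immune cells carry immunoproteasomes, so their markers are given beside these results. The 6 leukocyte markers, all listed, summed to 34.2 to 66.7 FPKM in Control, 87.8 to 128 in LPS and 65.3 to 106 in LPS+XJDHT. After LPS 4 of them rose, where 26.6% of all genes rose and 12% fell. Neutrophil markers, 4 of 6 listed, summed to 1.15 to 2.51, 71.0 to 108 and 65.0 to 143 FPKM, and macrophage and monocyte markers, 5 of 6 listed, to 130 to 205, 47.1 to 182 and 57.6 to 131 FPKM. The 5 macrophage and monocyte markers were split after LPS, with log2 fold changes from -1.35 to 1.28, of which 3 were positive. Only Cd68 was called, as higher. With median-ratio scaling 1 was called higher and 2 lower, where 18.6% of all genes rose and 18.5% fell. Of the T and NK cell markers 2 of 6 were listed, at most 0.458 FPKM in Control and 2.05 to 4.29 in LPS, and 0 of 4 B cell markers were. Fibroblast markers, all 5 listed, summed to 321 to 429 FPKM in Control, 689 to 817 in LPS and 562 to 896 in LPS+XJDHT. The rise in the sum was not shared by all 5, whose log2 fold changes after LPS ran from -0.65 to 1.40. Of them 3 were called higher and 0 lower, or 2 higher and 1 lower with median-ratio scaling. Erythroid markers, all 5 listed, summed to 1275 to 1379 FPKM in Control, 238 to 803 in LPS and 125 to 253 in LPS+XJDHT. Of these markers 3 fell after LPS, where 12% of all genes fell. The part of these cells in the levels of Psmb8, Psmb9 and Psmb10 was not tested.

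The 5 genes outside the rule whose log2(FPKM + 1) was most like the mean of Psmb8, Psmb9 and Psmb10 were Siah1a, Spg21, Sin3b, Bst2 and F2r. Their Pearson correlations over the 12 libraries were 0.977, 0.977, 0.974, 0.974 and 0.973. The Control libraries sit apart in all of them, and over the 8 libraries given LPS the values were 0.773, 0.788, 0.697, 0.721 and 0.777. Bst2, the antiviral tetherin, was at 18.9, 23.2, 19.1 and 21.3 FPKM in Control, at 99.0, 103, 94.9 and 103 FPKM in LPS and at 114, 65.2, 91.4 and 106 FPKM in LPS+XJDHT. Like Psmb8 and Psmb9, it was lowest among the LPS+XJDHT libraries in replicate 2.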

How the data were processed

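RNA of 12 mouse hearts, 4 per group, was compared. Each deposited file gives transcript values, taken here as FPKM made by the authors: multiplied by annotated length, 98.7% to 99.1% of the values tested in a library were whole multiples, within 0.1, of a single constant, which gave the depth. The submitters' processing notes name mm10 and limma, without a role. The sources used here name no aligner and no quantifier. The Control and LPS files list 36293 transcripts and those of LPS+XJDHT 35802, so gene FPKM was summed over the 24723 annotated ones common to both. Transcripts without an Ensembl identifier were not used.

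Log2(FPKM + 1) was fitted with limma 3.58.1 (intensity trend, 1 mean per group, no covariate) in R 4.3.3. Genes entered where 4 libraries or more reached 1 FPKM. Tests were two-sided, with an adjusted p below 0.05 as the threshold, and fold changes on this scale understate those of low genes. Ratios were tested by exact permutation over 70 splits. Other steps used pandas 2.3.3 and NumPy 2.4.6 under Python 3.11.15, and matplotlib 3.10.9. On data simulated for LPS against Control with 11509 genes, 91 of 100 genes changed by 2 and 72 of 100 changed by 1 on the log2 scale were recovered, with 12 false calls. The simulation changed only these genes, drawn from the more abundant ones, while 4447 genes were called in the data. Its rates therefore need not hold for the real fit.

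Members and lists were chosen with earlier results of these data known. By rule, values per library are given for the catalytic subunits, activators and inhibitor, the 5 other members with the largest called change and a mean of at least 5 FPKM, the 3 with the smallest p in LPS+XJDHT against LPS, and up to 4 genes of each further list, of which 1 is not reported here. Psma4, Psmd2, Psmd13, Psmg2, Ubd, Uba6, Irf1, Nfe2l1, Pomp, Usp14 and Sem1 were chosen after their values were seen. Alternatives were stricter and no filters, pseudocounts of 0.1 and 0.5, scaling, transcript choice, sample weights, the compared groups alone and each library left out. Limma-voom on recovered fragments and the full annotated lists for LPS against Control were added after the data were seen.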

Additional observations from a re-analysis of the deposited data

Results flagged for a closer look

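Among the genes given per library, 9 values lay far from the other 3 of their group. With 4 samples about 1 in 20 groups does so by chance, and 102 groups were examined. Among the members, Psmb5 was at 74.5 FPKM in Control replicate 1 against 69.2 to 70, and Psmf1 at 4.41 FPKM in LPS+XJDHT replicate 2 against 4.94 to 5.0. Psme2b was at 2.08 FPKM in Control replicate 2 against 0.553 to 0.792, and at 32.5 FPKM in LPS replicate 3 against 4.26 to 5.93. Psmc4 was at 53.5 FPKM in LPS+XJDHT replicate 3 against 70.5 to 73.8.

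Among the partner genes, Zfand5 was at 30 FPKM in LPS+XJDHT replicate 2 against 19.1 to 19.9, and B2m at 795 FPKM in the same library against 1303 to 1374. Tap1 was at 7.65 FPKM in LPS replicate 1 against 4.98 to 5.31, and Nfe2l2 at 34.8 FPKM in LPS+XJDHT replicate 3 against 52.0 to 54.1.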

How the results depend on the processing

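No paired analysis was possible because no mouse number in the labels occurs in more than 1 group, and the replicate numbers used here only name the libraries. Across the alternatives, the count of proteasome genes higher in LPS than in Control was 34 to 41, and 38 to 42 with 1 library left out. For LPS+XJDHT against Control it was 31 to 40, and 37 to 40. For LPS+XJDHT against LPS it was 0 in every setting run. Left out one library at a time, 37 of the 41 and 36 of the 40 calls were kept in every such fit, and the calls lost in at least 1 were Psmd10, Psmd13, Psme2b and Psmg2, and Psmb2, Psmc3, Psmd10 and Psmd13. The ratio of Psmb8 to Psmb5 in LPS against Control then ranged from 1.34 to 2.00 on the log2 scale, that of Psmb10 to Psmb7 from 1.88 to 2.08 and that of Psmb9 to Psmb6 from 0.88 to 1.36. With median-ratio scaling Psma1, Psmb2, Psmc3, Psmd9, Psmd10, Psmd13 and Psmg2 lost their call in LPS against Control. From coding transcripts alone Psmd2, Psmd11 and Psmf1 did, and from the most abundant transcript alone Psmd8, Psmd10 and Psmd13 did as well. Nfe2l2 turned to -0.44 in LPS against Control and to -0.35 in LPS+XJDHT against Control, from coding transcripts and from the most abundant transcript alike, and the cause was not tested. Psmb9 and Psme2b rest on few fragments in Control, means of 295 and 66.0.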
